A study of Mus musculus with 12 samples.

Results

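LBH589, also named panobinostat, inhibits histone deacetylases, the enzymes that take acetyl groups off histones and other proteins. The values described here are its effect on transcripts after 6 h in cultured MP cells, which model Group 3 medulloblastoma, a malignant tumour of the cerebellum, in the mouse with MYC as its driver. The study set drug against solvent to learn how such an inhibitor becomes toxic to these cells. MP cells grew in the cerebella of immunodeficient NSG mice, and were dissociated and plated in neurocult medium with a proliferation supplement. Cells of 3 tumours (MP525, MP567 and MP570) received 25 nM LBH589 or 0.00025% DMSO, the solvent, and were lysed after 6 h. Each tumour gave 1 array per group, so the comparison holds 3 LBH589 and 3 DMSO arrays, 6 of the 12 in the series. The other 6 arrays hold the same cells and treatments at 12 h. Genotype and age of the animals are not given in the sources used here. Cells of the host that stayed in the culture would be mouse cells too, and their transcripts cannot be told apart from those of the tumour by species.

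As background, acetyl groups on histone tails weaken the hold of nucleosomes on DNA and are read by bromodomain proteins that recruit the transcription machinery. Deacetylases work within repressor complexes such as NuRD, SIN3 and CoREST, and acetyltransferases within activator complexes such as SAGA and NuA4. Blocking deacetylases raises some transcripts and lowers others. MYC, the driver of this tumour type, is best known for raising the genes of ribosome assembly, nucleotide synthesis and folate metabolism.

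Expression was measured on Affymetrix whole-transcript arrays as log2 values, 1 per probe set. Array medians lay between 7.10 and 7.21, and having only 3 arrays per group limits how precise a value can be. Of 22180 genes with a probe set of their own, 18652 were bright enough to be tested and 3528 were not. The labelled identity was checked against marker lists. Of 10 markers of neural stem and progenitor cells, 8 lay above the array median on all 6 arrays, and their mean lay at 9.07 to 9.68 in DMSO and 9.22 to 9.55 in LBH589. Mature granule neuron markers were alike in number (8 of 10), with means of 8.43 to 8.98 and 8.59 to 8.81. Markers of microglia and macrophages had means of 7.47 to 7.57 and 7.37 to 7.56, close to the array medians. Of those 14, limma called 0 in either direction and 0 had an unadjusted p under 0.05, and 7 lay above the median on all 6 arrays. Astrocyte markers had means of 7.76 to 8.27 and 7.77 to 8.19, endothelial markers 7.31 to 7.77 and 7.37 to 7.76, mural cell and fibroblast markers 7.85 to 8.34 and 7.78 to 8.08, and oligodendrocyte markers 7.22 to 7.67 and 7.30 to 7.71. In these lists 5 of 10, 5 of 10, 7 of 10 and 5 of 9 markers lay above the median on all 6 arrays. That count alone therefore sets the labelled cells little apart from other kinds. Of 2 erythroid markers, 1 lay above the median, and Klf1 was called higher. Single markers were called in most lists. Nes, Sox9, Vim and Hes1 were higher and Prom1, Msi1 and Pax6 lower among the stem cell markers. Cbln1 and Slc17a7 were higher and Neurod1, Rbfox3, Zic1 and Zic2 lower among those of granule neurons. In the glial and vascular lists Aldoc, Cnp, Cldn11 and Kdr were higher and Slc1a3, Gja1 and Acta2 lower. Their part in the results below was not tested. In bulk RNA, fewer cells of a type and less RNA per cell cannot be told apart.

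After 6 h, transcripts of 3349 genes were higher and those of 2984 lower in LBH589, 18.0% and 16.0% of the 18652 tested (34.0% in all). Calls were made by limma with the tumour as a block, from a Benjamini-Hochberg adjusted p (under 0.05) over all tested genes. All differences below are LBH589 minus DMSO at 6 h on the log2 scale, ± SE. Most were small. The median size among called genes was 0.493, and 90.8% of them differed by less than 1, which is a factor below 2. There were 349 rises and 235 falls of at least 1, and 1680 and 1409 of at least 0.5. The tumours shared 1 direction in 6289 of the 6333 called genes, and in 4641 (73.3%) the 3 LBH589 arrays did not overlap the 3 DMSO arrays. Calling with the tumour as a block favours genes whose tumours go 1 way, so both counts follow in part from the calling. Over all tested genes, LBH589 lay above every DMSO array in 16.4% and below every one in 16.5%. The median size of the change in called genes was alike in the tumours, 0.518 in MP525, 0.481 in MP567 and 0.503 in MP570. Across genes, the tumours' differences correlated at 0.763 (MP525 and MP567), 0.823 (MP525 and MP570) and 0.758 (MP567 and MP570), as a description over genes, which are not replicates.

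Without the tumour block, in a fit that leaves the tumours' own levels in the spread, 1584 genes were called higher and 1364 lower (8.49% and 7.31%). With each of the 6 arrays at 6 h left out in turn, and each tumour, 3699 genes kept their call. In 2610 the call held in every alternative tried, the fit without the block included. The genes named below come mainly from these 2610, and an alternative is named where it ends a call.

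The shares of calls differed between bright and dim genes. Tested genes were ranked by their mean in DMSO at 12 h, arrays that do not enter the comparison, and divided into 10 level classes of equal size. In the 5595 genes of the dimmest 3 classes, with means up to 7.15, 6.34% were higher and 3.16% lower. Of the 7462 genes in the middle 4 classes, 23.9% rose and 14% fell. In the brightest 3 classes, from a mean of 9.36 up, rises made up 21.6% and falls 31.4% of 5595 genes. Rises were thus more frequent than falls up to class 7 (28.3% and 23.7%), and falls from class 8 on, reaching 17.3% and 35.2% in the brightest. Ranked instead by the mean of all 12 arrays, treated ones included, falls outnumbered rises in classes 1 and 2 (73 and 67 falls, 56 rises each) and in class 10 (28.9% and 22.3%), and rises outnumbered falls in classes 8 and 9 (26.7% and 26.3%, 27.8% and 26.6%). These shares are the background for each gene group below, since calls were fewer among dim genes of any kind.

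**Figure D1:**
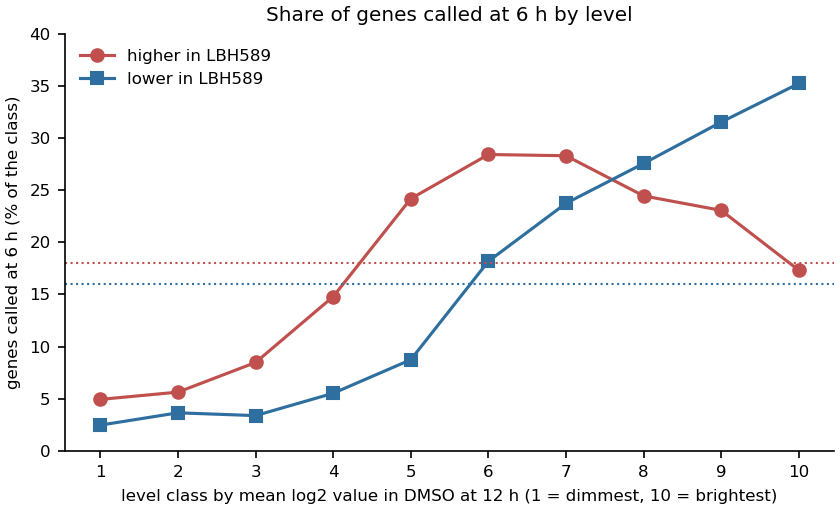
Share of the tested genes called higher (circles) and lower (squares) at 6 h, in percent, for each of 10 level classes of the genes by their mean log2 value in DMSO at 12 h. Dotted lines mark the shares over all tested genes, 18.0% and 16.0%. Rises peak at 28.4% in class 6 and falls reach 35.2% in class 10, the brightest.

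The changes that stood out most from their error were ranked by limma's moderated t, among genes with 1 direction in every tumour. Among the 12 highest were Grn, Kdelr3, Abat, Mknk2 and Xpr1. Grn encodes progranulin, a secreted growth factor that also acts in lysosomes. It read 9.02, 9.17 and 9.43 in DMSO and 10.86, 11.09 and 11.21 in LBH589, a rise of 1.85 ± 0.08, or 3.6-fold (limma adjusted p = 2.49e-08). Every LBH589 value lay at least 1 log2 unit above every DMSO value. Kdelr3 encodes a receptor that returns resident proteins from the Golgi to the endoplasmic reticulum, and it read 8.29, 7.16 and 8.39 in DMSO and 10.25, 9.20 and 10.49 in LBH589. MP567 had less of it than the other tumours in both groups, while the differences were alike, with a fit of 2.04 ± 0.11 (limma adjusted p = 4.96e-08). Abat, the enzyme that breaks down the transmitter GABA, rose by 1.76 ± 0.10 (limma adjusted p = 6.26e-08). Mknk2, a kinase that phosphorylates a cap-binding translation factor downstream of MAP kinases, rose by 1.36 ± 0.07, and Xpr1, the phosphate exporter, by 1.34 ± 0.07. The other members of this group were Cpt1a (2.69), Slc8b1 (2.24), Cep170b (1.94), Tango2 (1.70), Foxo1 (1.67), Prr5 (1.62) and Grtp1 (1.55). Another probe set of Foxo1, tested on its own, had 0.08 (limma adjusted p = 0.616).

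The 12 lowest included genes of ubiquitin and SUMO conjugation, lipid enzymes and general transcription factors. Cul1 encodes the scaffold of the SCF ubiquitin ligases. It read 10.90, 11.04 and 10.95 in DMSO and 9.36, 9.44 and 9.30 in LBH589 and fell by 1.60 ± 0.08 (limma adjusted p = 4.96e-08), with no overlap between the groups. Senp6, a protease that trims SUMO chains, read 11.77, 11.82 and 11.76 in DMSO and 10.38, 10.41 and 10.42 in LBH589. Values within a group differed by less than 0.1, and the fall was 1.38 ± 0.08. Fads2, the desaturase that opens the synthesis of long polyunsaturated fatty acids, fell by 1.02 ± 0.05. Cers2, a ceramide synthase for very long chains, fell by 1.5 ± 0.08 by its brightest probe set, whereas another had -0.30 (limma adjusted p = 0.0645). Gtf2i, which encodes the transcription factor TFII-I, and Gtf3c6, a subunit of the RNA polymerase III factor TFIIIC, changed by -1.49 ± 0.08 and -1.63 ± 0.09. Lamp5, a membrane protein of neuronal endosomes, fell by 1.70 ± 0.10, but it was not called without the tumour block (limma adjusted p = 0.0565). In DMSO it stood at 9.06 in MP525 and above 10 in the other tumours. Ubxn8 (-2.21), Casd1 (-2.16), Acsl5 (-2.38), Zfp428 (-1.77) and Rhobtb3 (-1.26) completed the group.

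**Figure D2:**
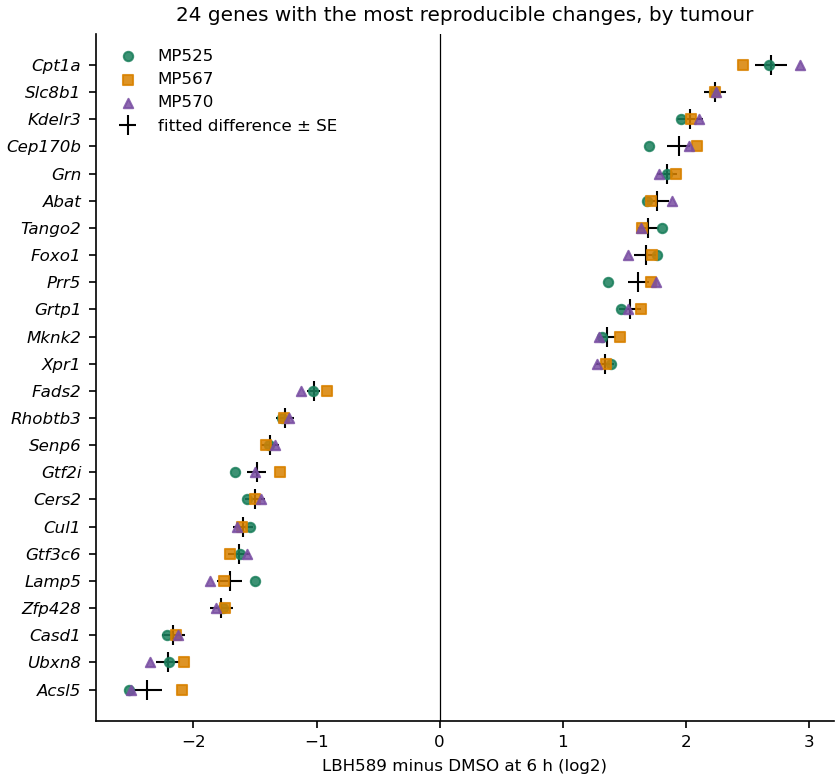
Difference between LBH589 and DMSO at 6 h (log2) in each of the 3 tumours for the 12 genes with the highest and the 12 with the lowest moderated t, with the fitted difference ± SE in black. The symbols of a gene lie close together, from Cpt1a at 2.69 to Acsl5 at -2.38.

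Promoters of 3 of the 12 rising genes are printed, as examples of genes with a CCAAT box and a GC box, whose shares among all promoters are counted further on. Each sequence holds the 250 bases before the gene's start from RefSeq, build GRCm38.p6, on the strand of the gene. Capitals mark CCAAT boxes (CCAAT or its reverse complement ATTGG) and GC boxes (GGGCGG or CCGCCC). Grn starts after chr11:102430257-102430506 (plus strand), Cpt1a after chr19:3323051-3323300 (plus strand), and Tango2, on the minus strand, next to chr16:18348099-18348348.
Grn: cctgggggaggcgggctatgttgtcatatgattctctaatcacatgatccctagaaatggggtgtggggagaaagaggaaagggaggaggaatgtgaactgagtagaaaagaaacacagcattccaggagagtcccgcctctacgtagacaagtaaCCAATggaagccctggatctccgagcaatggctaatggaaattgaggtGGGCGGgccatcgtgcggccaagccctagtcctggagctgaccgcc
Cpt1a: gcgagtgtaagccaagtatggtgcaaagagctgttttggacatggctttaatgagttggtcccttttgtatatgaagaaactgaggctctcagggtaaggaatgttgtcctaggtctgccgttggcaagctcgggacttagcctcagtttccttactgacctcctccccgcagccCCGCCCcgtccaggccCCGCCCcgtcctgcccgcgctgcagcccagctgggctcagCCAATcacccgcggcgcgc
Tango2: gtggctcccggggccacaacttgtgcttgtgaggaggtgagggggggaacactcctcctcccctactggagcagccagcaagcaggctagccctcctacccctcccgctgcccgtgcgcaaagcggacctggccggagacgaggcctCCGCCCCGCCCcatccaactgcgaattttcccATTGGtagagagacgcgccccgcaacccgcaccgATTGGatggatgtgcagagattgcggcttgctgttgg
Grn holds 1 match to each motif, Cpt1a 1 CCAAT and 2 GC boxes, and Tango2 2 of each, its GC boxes overlapping.

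To describe the response by function, 105 lists of pathways, complexes, gene families and cell markers were read for how many tested members were called. The shares over all genes were 18.0% higher and 16.0% lower. The 41 lists described here were chosen mainly because their share in 1 direction was at least 1.5 times that over all genes. That mark alone does not set them apart, since other lists passed it and are not among the 41. Examples are H3K9 methylation and heterochromatin (38.9% lower), translation initiation factors (35.7% lower) and the ESCRT machinery (32.1% higher). The 41 were thus selected partly by their outcome in these data and are no unselected survey of functions. No list was tested as a set, and some lists share genes. Lists are given below by what their products do. Counts in brackets after a list, higher and lower in the order of the sentence, are those of the fit without the tumour block. The smaller of a list's counts often rests on a few genes, and leaving out a single array or tumour moved many of those by a gene or more. Larger counts that moved by over 1.5 times are given with the array or tumour concerned.

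**Figure D3:**
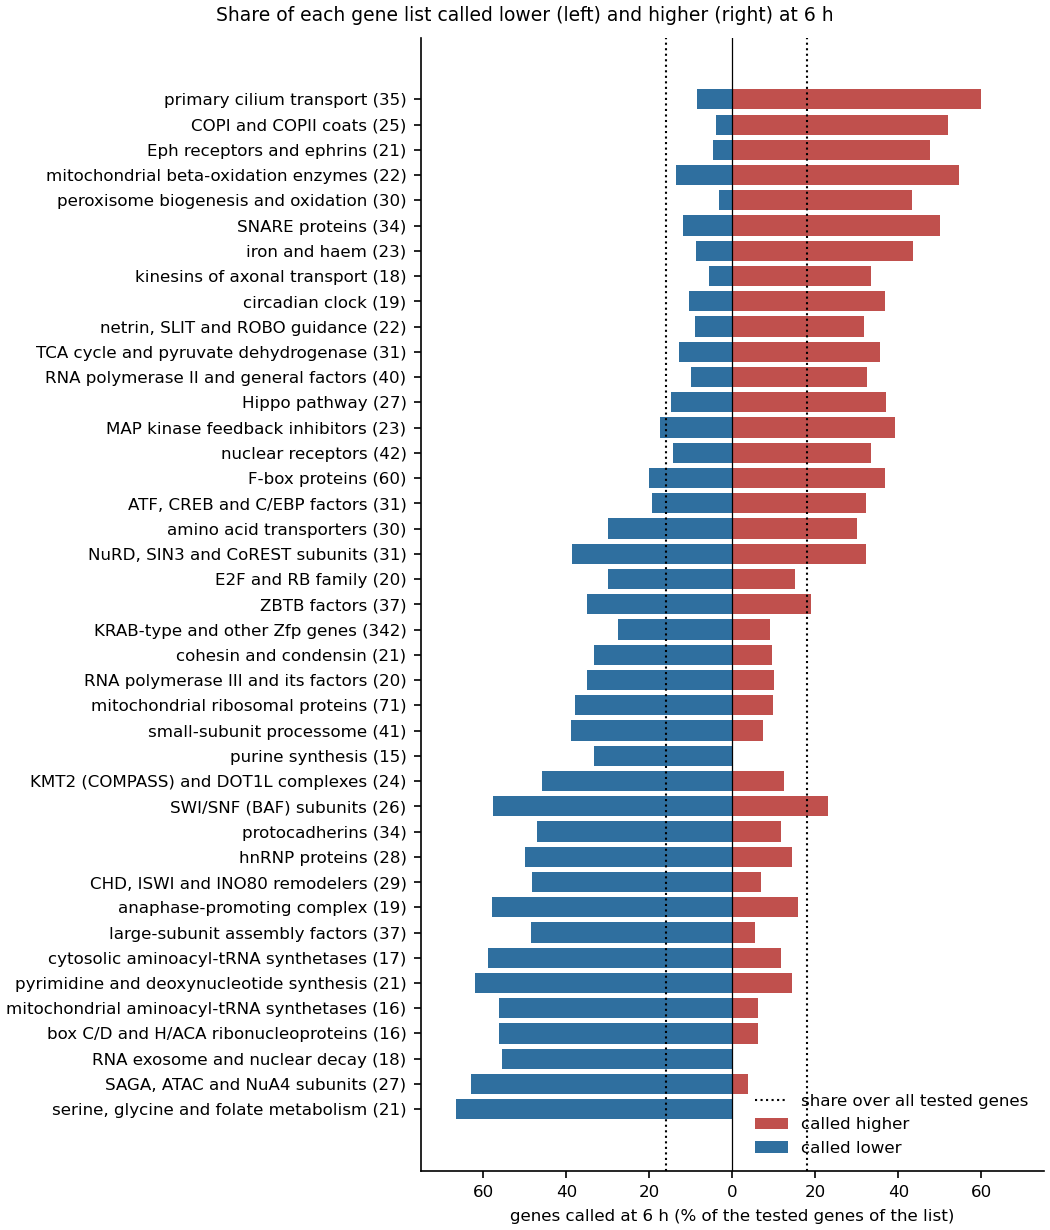
Percent of the tested members called higher (right) and lower (left) at 6 h in 41 gene lists, with the number tested in brackets. Dotted lines mark the shares over all tested genes, 16.0% lower and 18.0% higher. Primary cilium transport has the largest share of rises (21 of 35), and serine, glycine and folate metabolism the largest share of falls (14 of 21).

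Genes of the primary cilium, the antenna through which cerebellar precursors receive Hedgehog signals, were higher in larger share than in any other list of the 41. Of 35 tested members, 21 were called higher and 3 lower, with a median difference of 0.34 against -0.02 over all genes (11 and 1 without the block). Tctn2 encodes a protein of the transition zone at the base of the cilium. It read 7.59, 8.06 and 7.90 in DMSO and 9.04, 8.99 and 9.24 in LBH589, a rise of 1.24 ± 0.12 (limma adjusted p = 4.39e-06), with no overlap. Its neighbours in that zone rose too, Rpgrip1l by 1.14 ± 0.14, Tctn3 by 0.82 ± 0.10, Tmem67 by 0.83 ± 0.13 and Tmem231 by 0.58 ± 0.12. The trains that carry cargo along the cilium were represented by Ift22 (1.0), Ift80 (0.99) and Ift46 (0.63), and their motor by the kinesin gene Kif3a (0.97 ± 0.11). Bbs1 (0.91) and Bbs9 (0.85) belong to the BBSome, which carries membrane proteins into and out of the cilium. The strongest change of the list ran the other way. Cc2d2a, another transition zone gene, read 8.48, 8.47 and 8.60 in DMSO and 6.86, 7.29 and 6.96 in LBH589 and fell by 1.48 ± 0.12 (limma adjusted p = 1.58e-06).

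Genes of membrane traffic were called higher more often than lower. The coats COPI and COPII bud vesicles between the endoplasmic reticulum and the Golgi. Of their 25 tested members, 13 rose and 1 fell (6 and 0), with a median of 0.20, and 8 rose when MP570 was left out. Copz2, a COPI subunit, read 7.13, 6.84 and 7.27 in DMSO and 8.34, 8.33 and 9.78 in LBH589, a rise of 1.73 ± 0.20 (limma adjusted p = 1.65e-05). Its LBH589 value in MP570 lay more than 1 above those of the other tumours. Sec23a, an inner COPII subunit, read 11.16, 11.53 and 11.34 in DMSO and 11.92, 11.92 and 11.92 in LBH589, and the fit gave 0.58 ± 0.09. Sec16a, which marks the exit sites of the endoplasmic reticulum, rose by 0.79 ± 0.09, and Sec24d, a cargo adaptor, by 0.63 ± 0.11. SNARE proteins fuse vesicles with their target membranes. Of 34 tested, 17 rose and 4 fell (7 and 2), with 10 rises without the DMSO array of MP525, 11 without its LBH589 array and 11 without MP570. Vamp1, a vesicle SNARE of synapses, rose by 1.28 ± 0.11, and the target SNARE genes Stx1a and Stx2 by 0.78 ± 0.10 and 0.75 ± 0.11. Of 18 kinesin genes of axonal transport, 6 rose and 1 fell (4 and 0), among them Kif21b (0.94 ± 0.13) and Kif3b (0.68 ± 0.11), a partner of Kif3a. The 33.3% higher is near the 28.3% in level class 7, which holds the list's median level, and the 5.56% lower stands beside 23.7% there.

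Fatty acid oxidation beyond Cpt1a, the gate of import into mitochondria, was higher for most called enzymes. Of 22 enzymes of mitochondrial beta-oxidation, 12 rose and 3 fell (8 and 1), with a median of 0.31. Acadm, the dehydrogenase for medium chains, read 9.81, 10.05 and 10.32 in DMSO and 11.02, 10.98 and 11.05 in LBH589. MP570 started highest, and the LBH589 values were nearly equal, with a fit of 0.96 ± 0.10 (limma adjusted p = 7.14e-06). Acad11, an acyl-CoA dehydrogenase, rose by 0.91 ± 0.11, and Etfdh, which hands the electrons of these enzymes to ubiquinone, by 0.66 ± 0.11. Hadh (0.64), Acads (0.65), Etfa (0.58) and Hadha (0.54), which act along the same cycle, rose as well. Eci1, an isomerase needed for unsaturated chains, fell by 0.81 ± 0.09. Peroxisomes shorten very long chains. Of 30 genes of their assembly and oxidation, 13 rose and 1 fell (6 and 1), and 8 rose without the LBH589 array of MP570, without MP525 or without MP570. Pxmp4, a peroxisomal membrane protein, rose by 1.28 ± 0.14 and the assembly factor Pex16 by 0.71 ± 0.09, whereas Amacr, a racemase for branched chains, fell by 0.70 ± 0.11.

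Called genes around pyruvate included some that keep it from oxidation or carboxylate it. Pdk2, a kinase that switches pyruvate dehydrogenase off, read 8.34, 8.67 and 7.80 in DMSO and 9.31, 9.55 and 9.52 in LBH589, a rise of 1.19 ± 0.17 (limma adjusted p = 8.52e-05). Pcx, pyruvate carboxylase, which refills the TCA cycle, read 9.08, 8.29 and 8.66 in DMSO and 10.20, 9.27 and 9.83 in LBH589 and rose by 1.09 ± 0.09. In both genes the LBH589 values lay above the DMSO values without overlap. Of 31 genes of the cycle and of pyruvate dehydrogenase, 11 rose and 4 fell (5 and 1), 6 rising without MP525. Suclg2, a subunit of succinyl-CoA ligase, fell by 0.85 ± 0.11. Genes of iron and haem showed 10 rises and 2 falls of 23 (6 and 1). Blvrb reduces biliverdin, the breakdown product of haem, to bilirubin. It read 8.51, 8.27 and 8.86 in DMSO and 10.06, 9.85 and 10.47 in LBH589, a rise of 1.58 ± 0.10, or 2.99-fold (limma adjusted p = 1.5e-07). Hmox1, the haem oxygenase that makes biliverdin, rose by 0.84 ± 0.12. On the side of haem synthesis, Urod, a decarboxylase, rose by 1.12 ± 0.08, and Uros (0.57) and Ppox (0.55), which act before and after it, rose too.

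**Figure D4:**
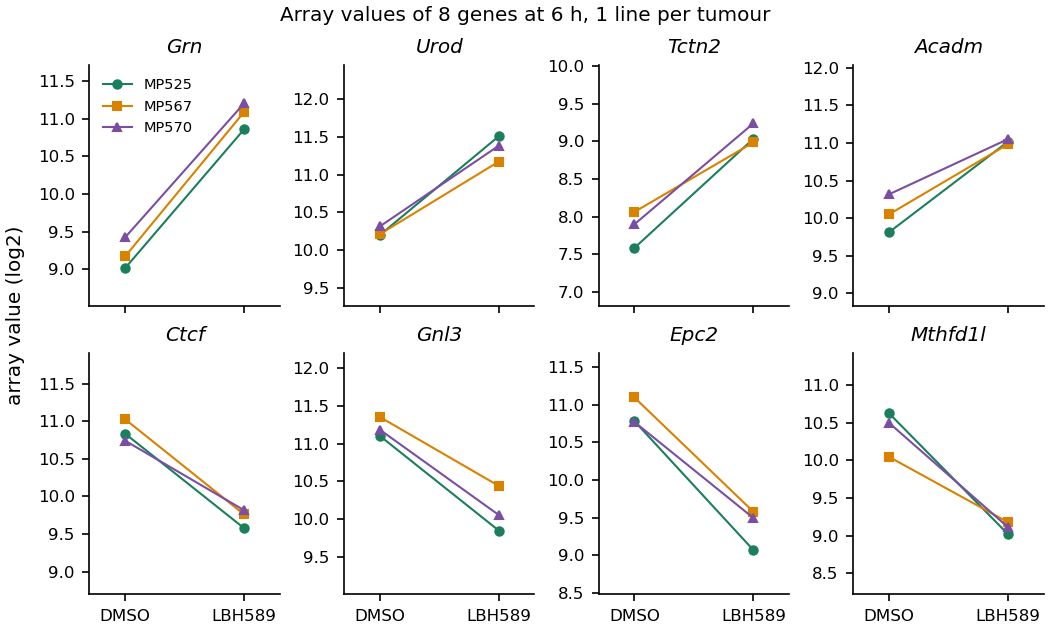
Log2 array values of 8 genes in DMSO and LBH589 at 6 h, with 1 line and symbol for each tumour. Every panel spans the same range of log2 units, though not the same levels. Grn, Urod, Tctn2 and Acadm rise in all 3 tumours, by 1.85, 1.12, 1.24 and 0.96, and Ctcf, Gnl3, Epc2 and Mthfd1l fall in all 3, by fitted differences of -1.15, -1.10, -1.5 and -1.29.

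Several transcription factor families had members with clear rises. In the circadian clock, 7 of 19 tested genes rose and 2 fell (6 and 0). Arntl, which encodes BMAL1, the activator that pairs with CLOCK, read 8.02, 7.82 and 8.04 in DMSO and 9.48, 9.33 and 9.57 in LBH589. The rise of 1.5 ± 0.09 (limma adjusted p = 1.99e-07) was about equal in the tumours. Its repressors Per1 and Cry2 rose by 0.92 ± 0.12 and 0.99 ± 0.14, while Clock itself had -0.17 and was not called. Among ATF, CREB and C/EBP factors, 10 of 31 rose and 6 fell (8 and 2), with a median of 0.05. The 32.3% higher and 19.4% lower are near the 28.3% and 23.7% in level class 7, which holds the list's median level. Ddit3, which encodes CHOP, a factor of the endoplasmic reticulum stress response, read 9.28, 8.87 and 9.37 in DMSO and 10.53, 10.19 and 10.53 in LBH589 and rose by 1.24 ± 0.13 (limma adjusted p = 8.34e-06). The membrane-bound factors of the secretory pathway, which are cut at the Golgi to enter the nucleus, rose together: Creb3l2 by 1.34 ± 0.09, Creb3l1 by 1.16 ± 0.12, Atf6 by 0.85 ± 0.12 and Creb3 by 0.70 ± 0.09. Nfe2l3, a relative of NRF2, rose by 1.17 ± 0.18. Atf5 fell by 0.87 ± 0.16, and Atf4, the central factor of the integrated stress response, had 0.02 and was not called. Of 42 nuclear receptors, 14 rose and 6 fell (7 and 3). These included Nr4a3 (1.24 ± 0.15), an early response receptor, the fatty acid sensor Ppard (1.04 ± 0.12), the vitamin D receptor Vdr (0.92 ± 0.17) and the retinoic acid receptor Rara (0.75 ± 0.12). Nr2f2, an orphan receptor, fell by 0.72 ± 0.11.

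Among receptors of axon guidance and cell contact, calls were mostly rises. Of 21 Eph receptors and ephrins, 10 rose and 1 fell (2 and 0), with 6 rises without the LBH589 array of MP570 or without that tumour. Epha4 read 7.62, 7.32 and 7.37 in DMSO and 9.27, 8.48 and 8.61 in LBH589, a rise of 1.35 ± 0.11 (limma adjusted p = 1.48e-06), and Ephb3 rose by 0.73 ± 0.09. The ligand gene Efna3 read 9.68, 7.32 and 9.43 in DMSO and 10.82, 10.27 and 10.42 in LBH589. Its fitted rise of 1.69 ± 0.33 rested most on MP567, whose DMSO value was low, and it was not called without the block (limma adjusted p = 0.0825). Of 22 genes of netrin, SLIT and ROBO guidance, 7 rose and 2 fell (2 and 0), with a median of 0.04. The 31.8% higher is near the 28.4% in level class 6, which holds the list's median level, and the 9.09% lower stands beside 18.2% there. The netrin receptors Unc5a and Unc5b, which signal death in the absence of ligand, rose by 1.42 ± 0.15 and 0.89 ± 0.10. Dcc, the attractive netrin receptor, had -0.02 and was not called. In the Hippo pathway, which restrains growth at cell contacts, 10 of 27 rose and 4 fell (4 and 0), and 6 rose without either array of MP570 and 5 without that tumour. Fat4, an upstream cadherin, rose by 0.97 ± 0.10, Tead3, a nuclear effector, by 0.85 ± 0.12, and Wwc2 and Frmd6, upstream activators, by 0.82 ± 0.11 and 0.75 ± 0.12. The central coactivator gene Yap1 had -0.12 and was not called. Another probe set of Fat4, tested alone, had 0.17 (limma adjusted p = 0.28). Among 23 feedback inhibitors of MAP kinases, such as the DUSP phosphatases, 9 rose and 4 fell with the block, whereas limma called 0 without it, and 4 to 5 rose without MP525, MP567, the LBH589 array of MP525 or the DMSO array of MP567. At an unadjusted p under 0.05 the main fit had 13.

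Calls among genes that build ribosomes were mainly falls. In 37 assembly factors of the large subunit, 18 fell and 2 rose (12 and 0), with a median of -0.24. These genes are bright, and 31.4% of bright genes in general fell. Noc2l, a nucleolar export factor of pre-ribosomes, read 12.58, 12.47 and 12.39 in DMSO and 11.62, 12.06 and 11.58 in LBH589, and fell by 0.73 ± 0.11 (limma adjusted p = 0.000185). Its MP567 value in LBH589 was nearest to DMSO. Gnl3, which encodes nucleostemin and is a known MYC target, fell by 1.10 ± 0.10, Rrs1 by 0.64 and Wdr12 by 0.62. The small-subunit processome is the particle that folds and cuts the precursor of the small ribosomal RNA. Of its 41 tested members, 16 fell and 3 rose (9 and 1). Utp20, a large scaffold, read 10.65, 10.60 and 9.97 in DMSO and 9.59, 9.61 and 9.33 in LBH589 and fell by 0.90 ± 0.10 (limma adjusted p = 9.85e-06). Wdr43 and Ltv1 changed by -0.79 ± 0.06 and -0.63 ± 0.09. Of 16 proteins of the box C/D and H/ACA particles, which modify ribosomal RNA, 9 fell and 1 rose (2 and 1). Dkc1, dyskerin, the pseudouridine synthase of the H/ACA particles, read 12.11, 12.10 and 12.12 in DMSO and 11.06, 11.05 and 11.11 in LBH589. Within each group its values differed by less than 0.1, and the fall was 1.03 ± 0.08 (limma adjusted p = 7.92e-07).

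Falls outnumbered rises among genes of the exosome and of hnRNP proteins, whereas in mRNA deadenylation and decapping 9 of 26 rose and 6 fell (4 and 3), with 3 falls without the DMSO array of MP567. Those calls are to be read beside the 21.6% higher and 31.4% lower among bright genes. The exosome trims and degrades RNA from its tail end. Of 18 genes of the exosome and nuclear decay, 10 fell (5), with a median of -0.26, while limma called 0 higher and 0 rose at an unadjusted p under 0.05. Exosc10, its nuclear catalytic subunit, read 11.89, 11.84 and 11.78 in DMSO and 10.91, 10.99 and 11.01 in LBH589 and fell by 0.87 ± 0.06 (limma adjusted p = 5.75e-07). Dis3l, the catalytic subunit of the cytoplasm, fell by 1.33 ± 0.11, and Exosc8, a ring subunit, fell by 0.58 ± 0.08. Among 28 hnRNP proteins, which coat and splice nascent RNA, 14 fell and 4 rose (8 and 3). Pcbp4 fell by 0.71 ± 0.11, Hnrnpu by 0.53 and Hnrnpr by 0.52, while the splicing repressor Ptbp3 rose by 0.69 ± 0.08. Ptbp2, its neuronal relative, fell by 0.79 ± 0.09, a call lost without the block (limma adjusted p = 0.117). Of 20 genes of RNA polymerase III and its factors, 7 fell and 2 rose (4 and 1), with Gtf3c3 at -0.80 ± 0.16 and Polr3d at -0.63 ± 0.09. Polr3gl, an alternative subunit, rose by 1.09 ± 0.12. Of 40 genes of RNA polymerase II and its general factors, 13 rose and 4 fell (5 and 1), and 8 rose without either array of MP525, without the LBH589 array of MP570 or without MP525. Taf13 of TFIID rose by 0.93 ± 0.10 and the subunit gene Polr2l by 0.73 ± 0.10, while Polr2m fell by 0.83 ± 0.08.

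Genes that charge transfer RNAs, and those of mitochondrial translation, were called lower more often than higher. Of 17 cytosolic aminoacyl-tRNA synthetases, which load amino acids onto transfer RNAs, 10 fell and 2 rose (5 and 0). The methionine enzyme gene Mars1 read 11.26, 11.22 and 11.53 in DMSO and 10.37, 10.66 and 10.65 in LBH589 and fell by 0.78 ± 0.08 (limma adjusted p = 8.57e-06). Iars for isoleucine and Lars for leucine fell by 0.68 ± 0.07 and 0.67 ± 0.11. Of 16 mitochondrial synthetases, 9 fell and 1 rose (6 and 0). Yars2, for mitochondrial tyrosine, read 10.79, 11.25 and 10.92 in DMSO and 9.53, 10.08 and 9.78 in LBH589, and fell by 1.19 ± 0.08, below its DMSO level in every tumour. Sars2 (-0.92 ± 0.17), Ears2 (-0.71 ± 0.09) and Tars2 (-0.70 ± 0.09) fell too. In the 71 proteins of the mitochondrial ribosome, 27 fell and 7 rose (15 and 5), but the median was -0.09, and 37 were not called. Mrpl54 fell by 1.07 ± 0.16, Mrps15 fell by 0.79 ± 0.11 and Mrpl19 fell by 0.75 ± 0.08, while Mrpl49 and Mrpl24 rose by 0.59 ± 0.07 and 0.58 ± 0.07.

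Enzymes that supply nucleotides were called lower more often than higher, and the lists are bright ones, beside 31.4% lower among bright genes. Serine and glycine feed the folate cycle, which gives carbon units to nucleotides and methionine. Of 21 genes, 14 fell (8) with a median of -0.39, the largest share of falls among the 41 lists. limma called 0 of them higher, and 1 rose at an unadjusted p under 0.05. Mthfd1l, a mitochondrial enzyme that releases formate, read 10.62, 10.05 and 10.50 in DMSO and 9.02, 9.18 and 9.11 in LBH589 and fell by 1.29 ± 0.15 (limma adjusted p = 1.66e-05). DMSO was lowest in MP567, and the LBH589 values were close together. Phgdh opens the synthesis of serine from glucose. It read 10.62, 10.54 and 10.70 in DMSO and 9.87, 10.05 and 9.92 in LBH589 and fell by 0.68 ± 0.12. Aldh1l2, which oxidises folate units in mitochondria, fell by 0.95 ± 0.11, Slc19a1, the folate carrier, fell by 0.94 ± 0.15, and Mtrr, which keeps methionine synthase active, fell by 0.86 ± 0.09. Shmt2 (-0.51), Mthfd2l (-0.76) and Mthfd2 (-0.41) lie between serine and formate and fell as well. In 21 genes of pyrimidine and deoxynucleotide synthesis, 13 fell and 3 rose (10 and 1), with a median of -0.42. Ctps, CTP synthase, read 10.90, 10.89 and 10.90 in DMSO and 9.97, 10.04 and 10.10 in LBH589, a tight pattern with a fall of 0.86 ± 0.08 (limma adjusted p = 2.84e-06). The salvage kinase gene Uck2 fell by 0.67 ± 0.07, Cmpk1 fell by 0.65 ± 0.11 and Rrm2, the small subunit of ribonucleotide reductase, fell by 0.85 ± 0.11. Tk2, the thymidine kinase of mitochondria, rose by 0.63 ± 0.12. Of 15 genes of purine synthesis 5 fell (3), and 3 without MP570, while limma called 0 higher and 0 rose at an unadjusted p under 0.05. That is 33.3% lower at a median level of 11.17, near the 35.2% in level class 10, with Atic (-0.59 ± 0.07) and Nme1 (-0.52 ± 0.08) among them.

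Amino acid transporters were divided, with 9 rises and 9 falls of 30 (2 and 6). At 30.0% each, both shares are near the 24.45% higher and 27.56% lower in level class 8, which holds the list's median level. Slc7a3, a carrier of arginine and lysine, read 10.73, 10.09 and 10.56 in DMSO and 9.13, 8.45 and 8.86 in LBH589, a difference of -1.65 ± 0.11 (limma adjusted p = 3.73e-07). No LBH589 value reached any DMSO value. The glutamine carrier gene Slc38a1 fell by 0.99 ± 0.07, and Slc7a6, an exchanger of basic amino acids, fell by 0.73 ± 0.08. Slc38a9, the lysosomal arginine sensor upstream of mTORC1, read 8.93, 8.76 and 8.92 in DMSO and 10.03, 9.67 and 10.04 in LBH589 and rose by 1.04 ± 0.09.

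**Figure D5:**
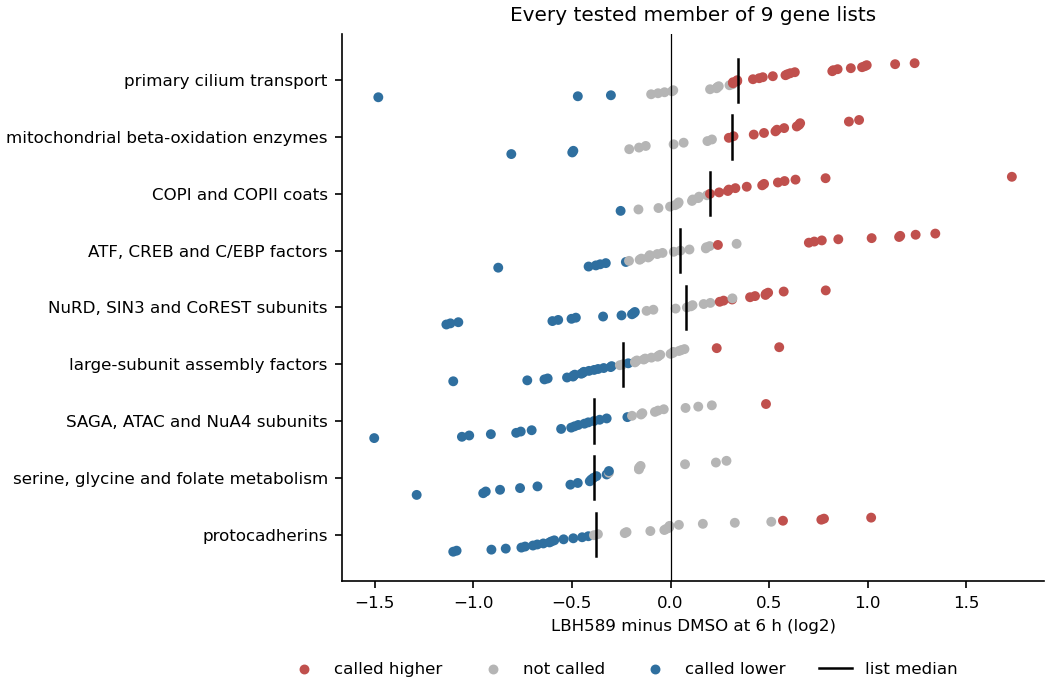
LBH589 minus DMSO at 6 h (log2) for every tested member of 9 lists, each member a point coloured by whether limma called it higher, lower or neither, and the list median as a bar. Medians run from 0.34 in primary cilium transport to -0.39 in the SAGA, ATAC and NuA4 subunits and in serine, glycine and folate metabolism, and each list holds members that were not called.

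Complexes that modify or move nucleosomes are also encoded by bright genes, and most calls among them were falls, with differences between complexes. SAGA, ATAC and NuA4 place acetyl groups on histones, the reaction opposite to that of the inhibited enzymes. Of 27 subunits, 17 fell and 1 rose (12 and 0), with a median of -0.39. Epc2, a NuA4 subunit, read 10.78, 11.10 and 10.77 in DMSO and 9.07, 9.58 and 9.50 in LBH589, and fell by 1.5 ± 0.11 to a level 2.84-fold lower (limma adjusted p = 6.22e-07). Meaf6, shared by NuA4 and other acetyltransferases, fell by 1.06 ± 0.09. In SAGA, Supt3 fell by 1.02 ± 0.10, and the catalytic subunit genes Kat2a (SAGA and ATAC) and Kat5 (NuA4) had -0.70 ± 0.08 and -0.56 ± 0.09. Sgf29 fell by 0.91 ± 0.08 by its brightest probe set, but another had -0.26 (limma adjusted p = 0.139). Among 24 genes listed under the KMT2 and DOT1L complexes, which methylate histones at active genes, 11 fell and 3 rose (5 and 0), with Mllt10 at -0.79 ± 0.09 and Hcfc1 at -0.66 ± 0.09. Nsd1, a histone methyltransferase counted in the list though not a subunit of these complexes, had -0.78 ± 0.10.

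Remodelers slide or exchange nucleosomes with energy from ATP. Of 29 CHD, ISWI and INO80 genes, 14 fell and 2 rose (8 and 1). Srcap, the motor that installs a histone variant, read 11.72, 11.66 and 11.21 in DMSO and 10.45, 10.62 and 10.45 in LBH589 and fell by 1.02 ± 0.09 (limma adjusted p = 3.2e-06). Yeats4, a reader of acetylated histones in the same complex, fell by 1.0 ± 0.09, and Baz1a, an ISWI partner, fell by 1.01 ± 0.09. Baz2a, which silences ribosomal DNA with an ISWI motor, read 9.94, 10.01 and 9.92 in DMSO and 10.98, 10.94 and 11.05 in LBH589 and rose by 1.04 ± 0.10. Of 26 BAF subunits, 15 fell and 6 rose (6 and 3). The rises included subunits known from neurons, Dpf3 (1.44 ± 0.14) and Dpf1 (0.57 ± 0.12), and Ss18l1 (0.49 ± 0.11). The falls included Bcl7b (-0.91 ± 0.11), Bcl7a (-0.77 ± 0.10), Smarce1 (-0.68 ± 0.10) and Brd9 (-0.66 ± 0.09). In the deacetylase complexes NuRD, SIN3 and CoREST themselves, which hold the enzymes that LBH589 blocks, 12 of 31 fell and 10 rose (7 and 4), with 7 falls without the DMSO array of MP567. The falls included NuRD and CoREST subunits, Mta3 with -1.14 ± 0.08, Rcor2 with -1.12 ± 0.15 and Mbd3 with -1.08 ± 0.11. Sin3a, the scaffold of SIN3, read 10.23, 10.49 and 10.37 in DMSO and 10.80, 11.09 and 10.92 in LBH589 and rose by 0.57 ± 0.07, and Arid4a of the same complex by 0.79 ± 0.13.

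Of 21 genes of cohesin and condensin, the rings that fold chromosomes, 7 fell and 2 rose (5 and 0). The 33.3% lower is near the share of bright genes in general (31.4%), and all 7 falls were cohesin genes or Ctcf. Ctcf, the factor at which cohesin stops, read 10.83, 11.03 and 10.74 in DMSO and 9.58, 9.76 and 9.82 in LBH589 and fell by 1.15 ± 0.09 (limma adjusted p = 1.21e-06). Stag1 fell by 1.12 ± 0.09, Stag2 fell by 0.64 ± 0.11 and Smc1a fell by 0.63 ± 0.09, while the condensin motor genes Smc2 and Smc4 had -0.05 and -0.10 and were not called. The anaphase-promoting complex, the ubiquitin ligase that ends mitosis, had 11 falls and 3 rises of 19 (5 and 2), with 7 falls without MP570. Anapc4 had -0.66 ± 0.14 and Anapc15 -0.65 ± 0.13, and Anapc10 rose by 0.59 ± 0.12. In the E2F and RB family, which times entry into S phase, 6 of 20 fell and 3 rose (4 and 2). The 30.0% lower is again near the 31.4% among bright genes. Rb1, the retinoblastoma protein gene, read 9.89, 9.16 and 9.90 in DMSO and 10.73, 10.17 and 10.83 in LBH589 and rose by 0.92 ± 0.10 (limma adjusted p = 1.4e-05). Mybl1 rose by 1.31 ± 0.12, and E2f3 fell by 0.65 ± 0.10. Lin9, a core subunit of the complex that joins MYB and RB family proteins, read 10.82, 10.68 and 10.44 in DMSO and 9.73, 9.32 and 9.44 in LBH589 and fell by 1.15 ± 0.11.

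Of 34 protocadherins, 16 fell and 4 rose (4 and 3), although the list is dim (median level 7.13). All 16 falls were genes of the Pcdhb cluster, neighbours that encode adhesion proteins of neurons. They are similar in sequence, so probe sets may read several of them, and the falls may not be independent. Pcdhb5 read 6.44, 7.16 and 6.56 in DMSO and 5.25, 6.14 and 5.46 in LBH589, a fall of 1.10 ± 0.11 (limma adjusted p = 4.73e-06), and Pcdhb3 fell by 0.91 ± 0.11. Outside the cluster, Pcdh8 rose by 1.02 ± 0.09 and Pcdh17 by 0.78 ± 0.13. Of 342 Zfp genes, many of them DNA-binding proteins with KRAB repressor domains, 94 fell and 31 rose (49 and 14), with 69 to 83 falls when an array or tumour was left out. The rises numbered 20 without the LBH589 array of MP525, 19 without that of MP570 and 18 without MP570. Zfp532 had -1.34 ± 0.10 and Zfp711 -1.21 ± 0.13, and Zfp964 rose by 1.15 ± 0.16 from levels below 6. Of 37 ZBTB factors, another zinc finger family, 13 fell and 7 rose (6 and 4), with 8 falls without either array of MP525. Zbtb1 had -1.23 ± 0.13 and Zbtb2 -1.03 ± 0.12. F-box proteins choose the targets of the ligases that Cul1 carries. Of 60 tested, 22 rose and 12 fell (11 and 3), with 14 rises without MP525 or MP570. Fbxo44 rose by 1.18 ± 0.12 and Fbxo10 by 0.98 ± 0.09, and Fbxo17 fell by 1.09 ± 0.10.

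Families that these cells hardly express showed few calls. Of 1088 olfactory receptors on the array, 274 passed the filter on dim genes, and 8 were called higher and 11 lower. In 51 keratins these were 0 and 1, in 35 HOX genes 0 and 1, in 35 genes of skeletal and heart muscle 1 and 2, and in 36 germline and meiosis genes 4 and 2. Of 23 genes of liver secretion limma called 0, and 1 had an unadjusted p under 0.05. Their medians lay between -0.08 and -0.01. A gene that passed the filter in these families can still lie near the floor of the array, where few changes are called. Small RNA genes were counted apart from these families. Calls in the 276 tested microRNA genes numbered 23 higher and 14 lower, and in 78 small nucleolar RNA genes 2 and 11, beside 18.0% higher and 16.0% lower over all genes.

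Sequence upstream of the genes was read as a description, for protein-coding genes with a promoter in the RefSeq table (13168 of 16370 tested, 80.4%), over 250 bases before to 50 after the start. The CCAAT box, on either strand, stood in 37.9% of all these promoters, in 45.3% of those of called-higher and 35.3% of called-lower genes. Among bright genes alone these shares were 39.5%, 45.8% and 36.7%, and among rises of at least 1 the share was 54.0%. The GC box GGGCGG was in 55.9% of all, 74.3% of called-higher and 62.2% of called-lower promoters, and in 70.5%, 77.7% and 67.6% of bright ones. Median GC content was 59.0% in all, 62.7% in called-higher and 60.7% in called-lower promoters, and its part in the shares of the GC box was not tested. TATAAA was in 9.52%, 5.52% and 7.35%. The E-box CACGTG, the core bound by MYC with its partner MAX, was in 9.21%, 9.90% and 10.9%, and among bright genes in 11.8% of all, 11.3% of called-higher and 11.7% of called-lower promoters. Of the other motifs searched, the ETS site CCGGAAG was in 14.1%, 17.7% and 15.1%, and in 22.4%, 25.5% and 17.7% of bright promoters. The CRE, TGACGTCA, was in 2.76%, 3.76% and 2.44%, and in 3.95%, 4.57% and 2.31% of bright ones.

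Among the 41 lists, the share of promoters with an E-box ran from 0% to 36.4%. The highest was the small-subunit processome, with 12 of 33, 7 of them in called-lower genes and 0 in called-higher ones. In that list 39.0% of tested genes were lower and only 3 were higher, and a link of the motif to direction was not tested. Other lists of ribosome building had fewer, with 5 of 31 large-subunit assembly factors (16.1%), 0 of 13 box C/D and H/ACA proteins and 5 of 62 mitochondrial ribosomal proteins (8.06%). Utp18 and Nol11, both subunits of modules that bind the precursor early, are printed as examples, again with the 250 bases before the start in GRCm38.p6 and with the E-box in capitals. Utp18 lies on the minus strand next to chr11:93885767-93886016 and Nol11, also minus, next to chr11:107189382-107189631.
Utp18: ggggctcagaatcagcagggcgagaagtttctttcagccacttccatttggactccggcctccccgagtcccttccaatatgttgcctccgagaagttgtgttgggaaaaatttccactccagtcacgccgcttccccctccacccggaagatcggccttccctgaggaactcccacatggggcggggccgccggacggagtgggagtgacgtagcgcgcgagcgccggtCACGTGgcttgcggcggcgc
Nol11: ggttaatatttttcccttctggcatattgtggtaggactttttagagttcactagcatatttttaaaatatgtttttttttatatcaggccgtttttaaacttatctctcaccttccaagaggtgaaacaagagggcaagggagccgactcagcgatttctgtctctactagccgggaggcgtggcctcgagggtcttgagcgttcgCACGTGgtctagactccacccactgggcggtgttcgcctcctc
Utp18 read 10.23, 10.59 and 10.57 in DMSO and 9.88, 9.98 and 10.20 in LBH589 and fell by 0.44 ± 0.09 (limma adjusted p = 0.00173). Nol11 had -0.34 ± 0.08 (limma adjusted p = 0.00477), a smaller change that was not called without MP570 (limma adjusted p = 0.0844) or as the mean of its probe sets. CCAAT boxes were in 18.8% to 88.9% of the promoters of a list, the highest share resting on 9 promoters of protocadherins. In primary cilium transport they were in 18 of 31 promoters (58.1%), 13 of called-higher and 0 of called-lower genes. That list had 60.0% of its genes called higher and only 3 genes lower. In serine, glycine and folate metabolism they were in 13 of 19 (68.4%), 8 of called-lower genes. There 66.7% of the genes were called lower and 0 higher, so no called-higher gene could hold the motif. A link of the motif to direction was not tested. A match shows only that the letters are there.

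The difference between the effects at 12 h and at 6 h was tested for each gene in the same fit. It was called for 2 of 18652 genes (0.0107%), and 1729 had an unadjusted p under 0.05. Without the block limma called 0, with 490 at an unadjusted p under 0.05. The number of genes called with the block was 0 without MP525, 5 without MP567, 1 without MP570 and 4 without the DMSO array of MP567 at 6 h. Effects at 12 h come from other arrays of the same tumours. Of genes higher at 6 h, 76.2% were also called higher at 12 h, and of genes lower at 6 h, 83.2% were also called lower, which makes 73.5% and 71.8% of the 3471 and 3457 called at 12 h (18.6% and 18.5% of tested genes). There were 0 genes called in opposite directions at the 2 times. Both genes with a called difference had a larger effect at 12 h. Ddx58, whose product RIG-I senses foreign RNA, read 7.76, 8.12 and 7.89 in DMSO and 7.28, 7.34 and 7.23 in LBH589 at 6 h, a fall of 0.63 ± 0.14 (limma adjusted p = 0.00263), against -2.32 at 12 h. Rnf213, a ubiquitin ligase of antiviral defence, read 8.17, 7.87 and 8.08 in DMSO and 8.12, 8.01 and 8.32 in LBH589 at 6 h, where the groups overlapped and the difference of 0.11 ± 0.13 was not called, against -1.96 at 12 h. No gene had a called difference with the larger effect at 6 h.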

How the data were processed

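RNA was extracted with Qiagen RNeasy columns, amplified with the Ambion WT Expression kit and labelled with the GeneChip WT Terminal Labeling kit, per the labels' protocols. The authors deposited log2 values for 41345 probe sets on 12 arrays (3 tumours, LBH589 or DMSO, 6 or 12 h). The 1 tool in the submitters' processing notes is Agilent Feature Extraction (version 10.7.3.1), which is made for another maker's arrays. Summarisation and normalisation are not given in the sources used here, and the values were used as deposited. GEO's platform annotation gave 1 gene for 23521 probe sets, several for 1814 and an unlisted one for 16010. Current symbols came through Entrez identifiers for 23328, and 193 kept the annotation's symbol. The brightest probe set stood for each of 22180 genes (1082 had more than 1), and genes above the array's 25th percentile on at least 3 arrays were tested (18652).

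limma 3.58.1 in R 4.3.3 fitted the 4 groups with the tumour as a block (lmFit, eBayes with a mean-variance trend) over all 12 arrays, and the 6 h contrast, that at 12 h and their difference were taken from it, each p-value adjusted by Benjamini-Hochberg over all tested genes. The fit was tested on simulated data. The tumour number pairs the arrays, since arrays of a number share a tumour per the labels. Deviations from the group means correlated at 0.450 to 0.805 in the 18 pairs of 1 tumour, and 12 of 12 arrays correlated best with their own tumour. Pairs that differed in both tumour and group had -0.510 to -0.0577. Deviations cancel out within a group, which pushes these values down when those of 1 tumour are positive, so they are no separate support for the pairing. With 1 array per tumour and group, p-values rest on the spread left after each tumour's own level is removed. This is how far the tumours differ in their group differences, pooled over both times with 6 residual degrees of freedom and moderated over genes.

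Gene lists and the comparison itself were chosen with earlier results of these data known. Genes were named by rule: the 12 highest and 12 lowest moderated t among called genes with 1 direction in every tumour, and up to 4 called members of each described list by size of change. A further rule, for genes with a larger effect at 6 h than at 12 h, gave 0. Genes named beyond these, and the preference for calls that held in every alternative fit of 1 value per gene, were chosen after their values were seen. Small nucleolar RNAs, microRNAs and genes with provisional names were only counted. Alternatives covered the block, scaling, filter, probe sets, mean-variance trend, threshold, and each array and tumour left out. Promoters came from RefSeq (GRCm38.p6), and 2434 genes have more than 1 listed start.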

Additional observations from a re-analysis of the deposited data

Results flagged for a closer look

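The effect of LBH589 differed between 6 and 12 h in 2 genes by the test of the difference itself, both of antiviral defence. In Ddx58 the effect at 12 h minus that at 6 h was -1.68 ± 0.197 on the log2 scale (limma adjusted p = 0.00774). In Rnf213 this difference was -2.07 ± 0.186 (limma adjusted p = 0.000689). Both were lower at 12 h than at 6 h relative to DMSO. Leaving out MP525 took the number of such genes from 2 to 0, leaving out MP570 to 1, and leaving out MP567 or its DMSO array of 6 h raised it to 5 or 4.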

How the results depend on the processing

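Across the alternatives tried, the count of genes called at 6 h ranged from 4501 (without MP570) to 6561 (the 6 h arrays alone), other than in the fit without the replicate block. That fit called 2948 genes, 1584 higher and 1364 lower, and 0 for the difference between the times. Its tumours' own levels stay in the residual spread by construction. Counts with an array or tumour left out ran from 4501 to 5526 in all, from 2335 to 2936 for genes called higher at 6 h and from 2166 to 2602 for genes called lower at 6 h, and 0 to 5 for the difference between times. Quantile normalization gave 8 genes for that difference, and the cause was not tested. Of 188 named genes, 162 kept their side of the threshold without the block and at least 183 with any single array or tumour left out. Zbtb14 was reversed when another of its probe sets was tested alone, at 0.19 (limma adjusted p = 0.512), and the cause was not tested. Of the 82 counts of list members, 61 moved by over 1.5 times without the block, 27 without MP570, 17 without MP525 and 18 at an adjusted p under 0.01. Another scaling moved the median of all genes between -0.03 and 0.01 and the share of rises among calls between 50.8% and 57.0%. Among the dimmest 3 level classes 6.34% and 3.16% were called higher and lower, fewer than among brighter genes.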

Other observations

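Several gene groups not described so far held called genes in both directions, and the median of all genes was -0.02. In Polycomb complexes, which silence developmental genes, 8 of 28 tested members rose and 5 fell (3 and 3 without the tumour block), with a median of -0.01. These 28.6% and 17.9% stand beside 24.45% and 27.56% in level class 8, which holds the list's median level. Without MP570 4 rose and 3 fell, and 5 rose without MP567 or without any 6 h array of either tumour. Rybp, a subunit of the non-canonical forms of PRC1, read 11.10, 10.97 and 10.53 in DMSO and 11.80, 11.60 and 11.47 in LBH589, a rise of 0.76 ± 0.08 (limma adjusted p = 1.01e-05). The chromobox genes Cbx7 and Cbx8, which read methylated histones in the canonical forms, rose by 0.75 ± 0.09 and 0.70 ± 0.13. Bmi1, a ring finger subunit known from cerebellar precursors, read 8.82, 8.62 and 8.92 in DMSO and 7.76, 8.27 and 8.42 in LBH589 and fell by 0.64 ± 0.13 (limma adjusted p = 0.00178), and Pcgf1, its counterpart in another form, fell by 0.58 ± 0.10. In these genes the groups did not overlap. Among histone chaperones, 6 of 22 rose and 7 fell (3 and 3), with 4 falls without MP525. These 27.3% and 31.8% stand beside 21.6% higher and 31.4% lower among bright genes in general. Anp32b, a bright acidic chaperone, read 12.57, 12.64 and 12.50 in DMSO and 11.26, 11.65 and 11.22 in LBH589 and fell by 1.19 ± 0.10 (limma adjusted p = 1.26e-06), whereas Cabin1 rose by 0.76 ± 0.07.

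Receptor tyrosine kinases showed 10 rises and 5 falls of 39 (6 and 2), with 6 rises without MP570 and 3 falls without MP525, MP570 or any 6 h array of either. These 25.6% and 12.8% stand beside 24.18% and 8.74% in level class 5, which holds the list's median level. Of the kinase genes, those of the fibroblast growth factor receptors Fgfr1 (0.76 ± 0.09) and Fgfr2 (1.01 ± 0.16) rose, while Kit, the receptor of stem cell factor, fell by 0.44 ± 0.08. Calls in ion channel genes differed between lists, beside 34.0% over all genes. Of 19 GABA-A and glycine receptor genes 4 rose and 5 fell (2 and 1), with 2 falls without MP570, without either of its arrays or without the DMSO array of MP525, and 3 without MP525, its LBH589 array or MP567. Of 25 voltage-gated calcium channel genes 6 rose and 4 fell (4 and 1), with 2 falls without MP525, MP570 or any 6 h array of either. Glrb, the beta subunit of glycine receptors, read 9.15, 8.59 and 9.41 in DMSO and 8.08, 7.14 and 7.96 in LBH589 and fell by 1.32 ± 0.15 (limma adjusted p = 1.38e-05). The potassium channel genes Kcnb2 and Kcnq5 changed by -1.09 ± 0.10 and -1.05 ± 0.13, and Kcnk10, of the leak type, by -1.20 ± 0.14. Kcnh2, which encodes the HERG channel, read 7.56, 7.62 and 7.73 in DMSO and 8.56, 8.56 and 8.52 in LBH589 and rose by 0.91 ± 0.10. Of 35 voltage-gated potassium channel genes 4 rose and 4 fell (1 and 2). Cdh2, N-cadherin, an adhesion protein of neural cells, read 11.89, 11.74 and 11.57 in DMSO and 10.80, 10.85 and 10.64 in LBH589 and fell by 0.97 ± 0.08. In the import of proteins into mitochondria, 11 of 30 genes fell and 4 rose (6 and 2), with Timm21 at -0.90 ± 0.10. The 36.7% lower stands beside 31.4% among bright genes. Ubtf, the factor that opens ribosomal DNA for RNA polymerase I, read 11.63, 11.50 and 11.52 in DMSO and 10.39, 11.01 and 10.54 in LBH589 and fell by 0.91 ± 0.12 (limma adjusted p = 5.79e-05).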
